A study of Mus musculus with 8 samples.

Results

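The genes described here are 10 RNA-binding and RNA-modifying genes that control translation in male germ cells, namely Dazl, Boll, Ybx2, Ybx3, Pabpc1, Pabpc2, Ddx25, Cpeb1, Tarbp2 and Papolb. They were chosen by name, and all 10 were found among the 17127 genes of the deposited table and among the 17126 genes tested. The RNA came from whole testes of 4-month-old male mice, in 4 wild-type libraries and 3 libraries of Iqch mutants. The mutants, labelled Iqch-/-, were homozygous for small CRISPR-Cas9 deletions within exon 19 of Iqch, a testis gene with an IQ motif, in lines founded from B6CBAF1 zygotes. The sources name the mutant RNA-seq data as those of the mu7 line, while the labels give no line for each library, and no other allele or treatment is stated for either group. Wild-type libraries 1 to 4 and mutant libraries 1, 2 and 4 were compared, and mutant 3 is not analysed here. The paper left out a mutant sample that it considered an outlier, and the deposited values include none for mutant 3. The spread among mutants is thus that of the libraries kept.

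Late in spermatogenesis the nucleus is packed and transcription stops, so spermatocytes and round spermatids make many mRNAs early and store them as silent ribonucleoprotein particles. RNA-binding proteins hold these mRNAs, change the length of their poly(A) tails and release them to ribosomes when the spermatid elongates. Proteins of the DAZ family, Y-box proteins, poly(A)-binding proteins, a germ cell poly(A) polymerase and an RNA helicase all take part in this control, and loss of many of them in mice causes male sterility.

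The level of 6 of the 10 genes fell in mutant testes, with changes of the mean from -8.52% to -15.3%, and 1 gene, Cpeb1, rose by 55.4%. The genes that fell were Boll, Ybx2, Ybx3, Pabpc2, Ddx25 and Papolb, and the 3 that did not pass the test were Dazl, Pabpc1 and Tarbp2. The test was limma on log2(CPM + 0.1) with Benjamini-Hochberg adjustment over all genes, and a gene was called at a false discovery rate (FDR) of 0.01. CPM gives a gene's reads for every 1000000 reads counted over the deposited genes of a library. Over all tested genes 50.4% were called, 36.3% higher in mutants and 14.2% lower. The median log2 fold change, mutant minus wild type, was -0.17 for the 10 genes and 0.12 for all tested genes, and the median size of the change regardless of sign was 0.20 for the 10 genes and 0.28 for all. Wild-type and mutant values did not overlap for 8 of the 10 genes, 7 lower and 1 higher, where 62.3% of all genes did not overlap, 19.5% lower and 42.8% higher. In whole tissue, fewer cells of a type and less RNA per cell cannot be told apart.

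The size of each change depends on how the libraries are scaled, and none of the 10 genes changed direction with it, so each change is also given after median-of-ratios size factors. These factors ran from 0.957 to 0.963 in wild-type libraries and from 1.04 to 1.07 in mutant libraries, and they moved the median of all genes from 0.12 to -0.01 on the log2 scale. After this scaling 9 of the 10 genes were called, 1 higher and 8 lower, against 52.1% of all genes, 27.0% higher and 25.1% lower. Pabpc1 and Tarbp2 joined the genes that fell, and Dazl was the gene that did not pass. Values did not then overlap for 9 of the 10, 8 lower and 1 higher, where 64.3% of all genes did not overlap, 31.6% lower and 32.7% higher.

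**Figure D1:**
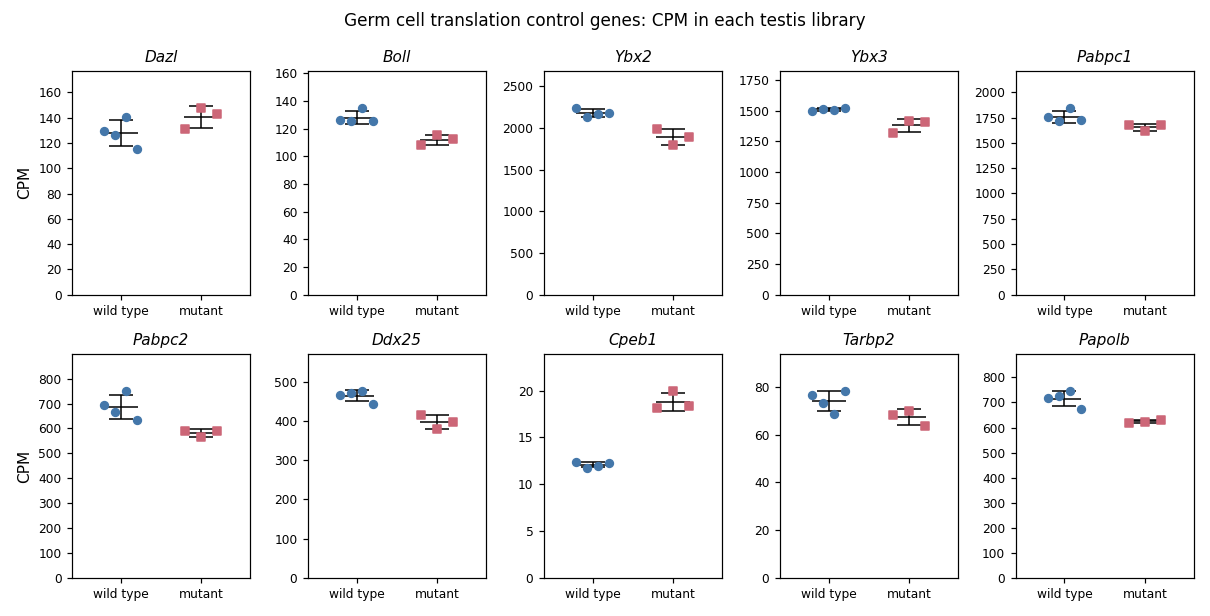
CPM of the 10 genes in each testis library, with 1 panel a gene and each axis starting at 0. Circles are the 4 wild-type and squares the 3 mutant libraries, and lines give the mean and SD. Mutant values sit below all wild-type values in 7 panels and above them for Cpeb1, while the groups overlap for Dazl and Tarbp2.

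Several measurements of the whole libraries bear on these genes. Taking the smallest step of the values as 1 read, the deposited genes held 32064384 to 37551057 reads a library. Reads outside these genes are not included. The least abundant of the 10 genes, Cpeb1, rested on 394 to 639 reads a library. Iqch itself fell from 208 ± 11.3 CPM (SD, n = 4) to 67.3 ± 2.25 CPM (n = 3), with a log2 fold change of -1.63 (SE 0.05, limma FDR 1.9e-10). Of 10 elongating spermatid markers all 10 fell, with summed levels of 26377 to 27931 CPM in wild type and 17020 to 19372 CPM in mutants. Round spermatid markers fell for 6 of 10 genes (1930 to 2105 CPM against 1663 to 1813 CPM), and 1 of 10 spermatocyte markers rose and 1 fell (1304 to 1372 CPM against 1217 to 1324 CPM). All 10 Sertoli cell markers tested rose (1280 to 1398 CPM against 2623 to 2763 CPM), as did 7 of 8 Leydig cell markers (1144 to 1366 CPM against 4756 to 4882 CPM) and 6 of 6 macrophage markers (65.9 to 72.3 CPM against 163 to 190 CPM). Spermatogonial markers rose for 5 of 10 genes (173 to 187 CPM against 232 to 263 CPM). Endothelial markers rose for 2 of 5 genes (30.6 to 34.5 CPM against 44.0 to 46.4 CPM), and of 5 peritubular myoid markers 1 rose and 1 fell (346 to 419 CPM against 286 to 326 CPM). After size factors 10 of 10 round spermatid markers and 4 of 10 spermatocyte markers fell, 9 of 10 Sertoli cell markers and 1 of 10 spermatogonial markers rose, and the counts of elongating spermatid, Leydig cell, macrophage and peritubular myoid markers were the same. Of the 5 endothelial markers 2 then rose and 1 fell. Every marker tested was detected in every library. Fshr of the Sertoli cell list and Tagln of the peritubular myoid list were absent from the deposited values. The part of these shifts in the changes of the 10 genes was not tested.

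Together the 10 genes took 7508 to 7844 CPM in wild-type libraries and 6739 to 6925 CPM in mutant libraries. These are 0.751% to 0.784% and 0.674% to 0.693% of the reads of the deposited genes. The lowest wild-type sum therefore lay above the highest mutant sum. Levels of the 10 genes were compared with one another per kb of the annotated canonical transcript. On that scale Ybx2 was the most abundant in wild type with 1302 ± 26.9 CPM per kb, rank 17 of the tested genes with a length. Ybx3 followed with 892 ± 6.97, Pabpc1 with 624 ± 21.0, Pabpc2 with 265 ± 19.0, Papolb with 169 ± 6.94 and Boll with 145 ± 5.24 CPM per kb. Ddx25 had 66.8 ± 1.98, Tarbp2 45.6 ± 2.58, Dazl 42.1 ± 3.42 and Cpeb1 3.50 ± 0.0852 CPM per kb, so Cpeb1, at rank 11500, was far below the rest. Tarbp2 and Dazl were the only neighbours in this order that did not differ beyond their spread. In mutants their order was the opposite, with 46.3 CPM per kb for Dazl and 41.4 for Tarbp2. The order depends on the length used: over the union of all annotated exons Boll had 12.8 CPM per kb. On that length Pabpc2 had 265 ± 19.0 and Pabpc1 260 ± 8.72 CPM per kb in wild type. Dazl then lay above Tarbp2 in wild type (32.9 and 16.3) and in mutants (36.3 and 14.8). The reversed order of these 2 genes in mutants thus holds only for the canonical length.

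The sequences upstream of 3 of the genes are given as examples. They come from the windows with few or no bases inside the annotated gene body, were not picked by their change, and need not be typical of the set. Ddx25 and Papolb fell in mutants under both scalings and in each fit described below, and Dazl did not pass the test. Each line gives the 250 bases before the start of the GENCODE canonical transcript in GRCm39, on the coding strand, 5′ to 3′. Capitals mark the motif TCCCGC, an E2F core, where it was found. The Ddx25 window (chr9:35469842-35470091, minus strand) ends inside the gene body by 17 bases, because another transcript starts earlier.
Ddx25: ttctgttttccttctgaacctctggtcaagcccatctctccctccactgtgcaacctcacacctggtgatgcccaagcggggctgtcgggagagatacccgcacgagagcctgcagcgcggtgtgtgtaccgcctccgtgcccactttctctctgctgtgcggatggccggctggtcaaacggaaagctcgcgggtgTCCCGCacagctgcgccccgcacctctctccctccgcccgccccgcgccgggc
The Papolb window lies at chr5:142515832-142516081, minus strand.
Papolb: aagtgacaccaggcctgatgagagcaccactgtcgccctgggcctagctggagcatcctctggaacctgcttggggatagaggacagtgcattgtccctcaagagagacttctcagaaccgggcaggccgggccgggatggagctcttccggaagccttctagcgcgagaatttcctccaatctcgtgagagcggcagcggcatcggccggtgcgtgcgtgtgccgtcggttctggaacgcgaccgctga
The Dazl window lies at chr17:50600665-50600914, minus strand.
Dazl: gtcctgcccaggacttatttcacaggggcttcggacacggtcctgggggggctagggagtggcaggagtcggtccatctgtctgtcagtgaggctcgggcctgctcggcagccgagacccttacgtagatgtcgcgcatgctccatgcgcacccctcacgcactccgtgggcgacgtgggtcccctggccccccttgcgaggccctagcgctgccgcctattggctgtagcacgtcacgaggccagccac

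The windows of 9 of the genes, all but Ybx3, were searched on both strands for TGACGTCA (a CRE, bound by CREM and CREB), AACNGTT (bound by MYB proteins), TCCCGC (E2F) and CACGTG (an E-box), which do not overlap one another as written. No CRE or MYB letters were found in any of the 9 windows, where 2.03% and 3.33% of 13785 windows of protein-coding genes hold them. TCCCGC was found in 5 of the 9 windows, against 23.8% of all windows: once in Boll, Ddx25 and Tarbp2, in 2 places in Pabpc1 and in 3 in Ybx2. The Ddx25 match lies 53 to 48 bases before the start. CACGTG was found in 1 window, that of Ybx2, at 159 to 154 bases before the start, against 7.70% of all windows. Of the 5 genes with TCCCGC, 3 fell on deposited CPM (Boll, Ybx2 and Ddx25) and 2 did not pass the test. The 4 genes without it were Dazl, Pabpc2, Cpeb1 and Papolb. A match describes letters and not a bound site. All 250 bases of the Boll, Pabpc1 and Cpeb1 windows lie inside the annotated gene body, as do 165 in Tarbp2 and 148 in Ybx2. The TCCCGC matches of Boll, Pabpc1 and Tarbp2 thus lie inside the gene body. In Ybx2 those at 115 to 110 and 18 to 13 bases before the start do too. The printed windows had a GC content of 66.8% in Dazl, 66.0% in Ddx25 and 62.0% in Papolb.

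Among the DAZ family genes Boll fell and Dazl did not pass the test. Dazl, which binds the 3′ UTRs of germ cell mRNAs from spermatogonia to spermatocytes and recruits poly(A)-binding protein, lies at chr17:50586366-50600664 on the minus strand (ENSMUSG00000010592, 11 exons). Its levels were 129.7, 126.0, 140.2 and 115.0 CPM in wild-type libraries 1 to 4 and 131.2, 147.6 and 143.1 CPM in mutants 1, 2 and 4. The groups overlapped, since wild type 3 exceeded mutant 1. The means were 128 ± 10.4 and 141 ± 8.49 CPM, which gave a log2 fold change of 0.14 (SE 0.06, limma FDR 0.0714). After size factors the change was 0.01 (SE 0.06, limma FDR 0.936).

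Boll, a DAZ family member that mouse spermatids need for their development, lies at chr1:55283803-55402950 on the minus strand (ENSMUSG00000025977, 10 exons). It measured 126.0, 125.7, 134.8 and 125.1 CPM in wild type and 107.8, 115.0 and 112.1 CPM in mutants. All mutant values were below all wild-type values, and wild type 3 stood above the other wild-type libraries. The mean fell from 128 ± 4.62 to 112 ± 3.63 CPM, by 0.20 on the log2 scale (SE 0.04, limma FDR 0.00210), and by 0.33 after size factors. The call was lost without mutant 1, where the log2 fold change was -0.17 (limma FDR 0.0121). Boll shares 3827 exon bases with Mars2 on the opposite strand. Mars2, a mitochondrial methionyl-tRNA synthetase, fell from 91.4 ± 5.43 to 78.4 ± 5.98 CPM (log2 fold change -0.22, limma FDR 0.00717). The strand setting of the counting is not given in the sources used here, so reads of the shared bases cannot be told apart.

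The Y-box genes Ybx2 and Ybx3 both fell, Ybx3 by the smaller amount. Ybx2, whose protein MSY2 coats stored mRNAs in spermatocytes and round spermatids, lies at chr11:69826474-69832432 on the plus strand (ENSMUSG00000018554, 9 exons). Its levels were 2237, 2128, 2169 and 2178 CPM in wild type and 1981, 1791 and 1884 CPM in mutants. The highest mutant library, mutant 1, was below the lowest wild-type library. The mean fell from 2178 ± 44.9 to 1886 ± 94.8 CPM, by 0.21 on the log2 scale (SE 0.04, limma FDR 0.000665), and by 0.34 after size factors. Ybx2 overlaps Eif5a, a translation elongation factor on the opposite strand, over 698 exon bases, and 22.5% of its 100-base windows also occur in Eif5a transcripts. Eif5a measured 455 ± 6.98 CPM in wild type and 464 ± 3.91 CPM in mutants (log2 fold change 0.03, limma FDR 0.449). As for Boll, the strand setting is not given, so reads of the shared bases cannot be told apart and the Ybx2 value is uncertain.

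Ybx3, a Y-box protein of germ cells and of somatic tissues that also binds stored mRNAs, lies at chr6:131341810-131365448 on the minus strand (ENSMUSG00000030189, 9 exons). It measured 1496, 1518, 1506 and 1522 CPM in wild type, a spread of 0.781% of the mean, and 1321, 1416 and 1409 CPM in mutants. Every mutant value was below every wild-type value, with mutant 1 the lowest. The mean fell from 1511 ± 11.8 to 1382 ± 52.6 CPM, by 0.13 on the log2 scale (SE 0.04, limma FDR 0.00817), and by 0.26 after size factors. This call was near the threshold and was lost when any single library other than mutant 2 was left out. Leaving out wild type 1, 2, 3 or 4, mutant 1 or mutant 4, the log2 fold change was -0.13, -0.13, -0.13, -0.13, -0.10 and -0.14 in that order.

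Of the genes that bind or extend the poly(A) tail, Pabpc2 and Papolb fell and Pabpc1 did not pass the test on deposited CPM. Pabpc1, the main cytoplasmic poly(A)-binding protein, lies at chr15:36595902-36609912 on the minus strand (ENSMUSG00000022283, 15 exons). Its levels were 1753, 1713, 1844 and 1725 CPM in wild type and 1674, 1614 and 1676 CPM in mutants. The groups did not overlap, with a gap between mutant 4 and wild type 2. The means were 1759 ± 59.1 and 1655 ± 35.2 CPM, with a log2 fold change of -0.09 (SE 0.04, limma FDR 0.0608), and after size factors it fell by 0.22 (limma FDR 0.000918). Of the 100-base windows of Pabpc1, 5.30% also occur in the pseudogene Gm16580 and 16.1% in the overlapping antisense transcript Gm62541, so its value is uncertain.

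Pabpc2 is a single-exon gene, an intronless copy of a poly(A)-binding protein gene expressed in spermatogenic cells (ENSMUSG00000051732). It measured 695.6, 667.0, 749.2 and 633.4 CPM in wild type and 590.2, 564.8 and 589.6 CPM in mutants. The groups did not overlap, although the wild-type libraries spread widely, with wild type 3 high and wild type 4 low. The mean fell from 686 ± 49.0 to 582 ± 14.5 CPM, by 0.24 on the log2 scale (SE 0.05, limma FDR 0.00152), and by 0.37 after size factors. Pabpc1 and Pabpc2 transcripts share no identical stretch of 100 bases.

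Papolb encodes the testis poly(A) polymerase TPAP, which lengthens poly(A) tails in the cytoplasm of spermatids, and is a single-exon gene at chr5:142511593-142515831 on the minus strand (ENSMUSG00000074817). Its levels were 718.0, 724.6, 744.5 and 674.7 CPM in wild type and 618.6, 621.8 and 631.9 CPM in mutants. The mutant libraries lay close together, all below wild type 4, the lowest wild-type library. The mean fell from 715 ± 29.4 to 624 ± 6.91 CPM, by 0.20 on the log2 scale (SE 0.04, limma FDR 0.000921), and by 0.33 after size factors. Papolb lies within Radil on the same strand with 0 exon bases in common, and Radil measured 61.4 ± 0.946 CPM in wild type and 65.1 ± 2.56 CPM in mutants (log2 fold change 0.08, limma FDR 0.133).

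Ddx25, or gonadotropin-regulated testicular RNA helicase, exports mRNAs from the nucleus and aids their translation in spermatids, and also is made in Leydig cells. It lies at chr9:35447943-35469858 on the minus strand (ENSMUSG00000032101, 12 exons). It measured 467.0, 470.7, 475.8 and 444.6 CPM in wild type and 414.7, 378.8 and 397.9 CPM in mutants. All mutant libraries were below wild type 4, the lowest of its group. The mean fell from 465 ± 13.7 to 397 ± 18.0 CPM, by 0.23 on the log2 scale (SE 0.04, limma FDR 0.000462), and by 0.36 after size factors. Leydig cell markers rose in the same libraries, as given above.

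Cpeb1 was the gene of the set that rose. Its protein binds the cytoplasmic polyadenylation element of 3′ UTRs and is needed in germ cells at the pachytene stage of meiosis, and the gene lies at chr7:80996774-81105213 on the minus strand (ENSMUSG00000025586, 12 exons). Levels were 12.4, 11.7, 12.0 and 12.3 CPM in wild type and 18.1, 19.9 and 18.3 CPM in mutants. Every mutant library was far above the wild-type libraries, which were close to one another. The mean rose from 12.1 ± 0.295 to 18.8 ± 1.00 CPM, by 0.63 on the log2 scale (SE 0.07, limma FDR 7.7e-06), and by 0.50 after size factors (limma FDR 4.8e-05). Summed levels of the spermatogonial, Sertoli cell, Leydig cell, macrophage and endothelial markers were also higher in every mutant library than in any wild-type one. Those of the round spermatid, elongating spermatid and peritubular myoid markers were lower, and that of the spermatocyte markers overlapped. All these sums are of deposited CPM, and after size factors 4 of 10 spermatocyte markers fell and 0 rose. The peritubular myoid sum was mostly Actg2, which fell from 299 to 221 CPM. Of the other myoid markers Des rose and the rest were not called.

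Tarbp2, a double-stranded RNA-binding protein that partners Dicer and is needed for protamine mRNA translation, did not pass the test on deposited CPM. It lies at chr15:102426627-102432111 on the plus strand (ENSMUSG00000023051, 9 exons). It measured 76.7, 73.1, 68.7 and 78.1 CPM in wild type and 68.3, 69.8 and 63.5 CPM in mutants. The groups overlapped, since mutant 2 exceeded wild type 3. The means were 74.2 ± 4.19 and 67.2 ± 3.30 CPM, with a log2 fold change of -0.14 (SE 0.06, limma FDR 0.0434), and after size factors it fell by 0.28 (limma FDR 0.00104). Its value is uncertain, since 43.9% of the 100-base windows of its canonical transcript occur in other transcripts, the largest share of the 10 genes. The pseudogene Gm18584 holds 34.3% of the windows. It measured 85.0 ± 3.53 CPM in wild type and 76.9 ± 6.45 CPM in mutants (log2 fold change -0.15, limma FDR 0.0477). Map3k12, which overlaps Tarbp2 by 330 exon bases on the opposite strand, rose from 7.60 ± 0.775 to 10.7 ± 0.433 CPM (log2 fold change 0.50, limma FDR 0.000768).

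**Figure D2:**
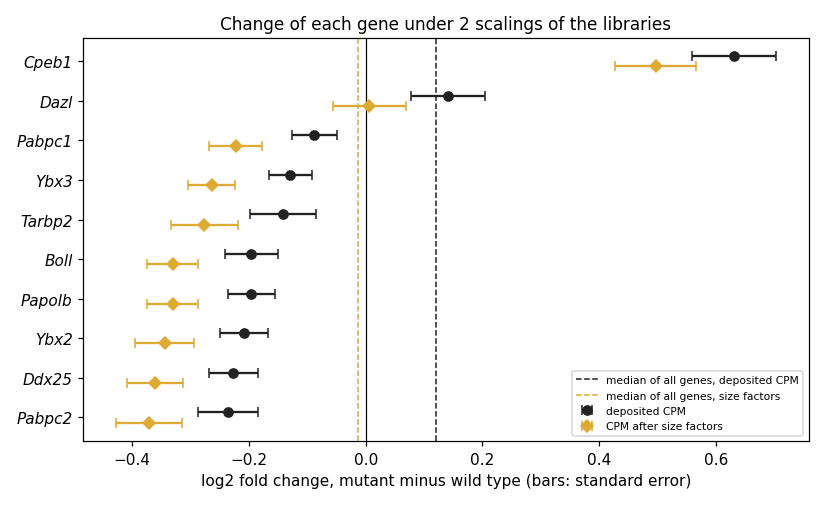
Log2 fold change of each gene, mutant minus wild type, on deposited CPM (circles) and after size factors (diamonds), with bars for the standard error and dashed lines at the median of all tested genes. Size factors shift every gene to the left by a like amount, Cpeb1 stays at the right with 0.63 and 0.50, and Dazl goes from 0.14 to 0.01.

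Wild type 3 had the highest value of its group for 6 of the 10 genes, and wild type 4 the lowest for 5. Among mutants, mutant 2 was highest for 5 genes and lowest for 4, and mutant 1 was lowest for 5. No single library thus stood apart for all 10 genes.

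Ratios of related genes within a library do not depend on its scaling. There were 6 such ratios, each compared with an exact permutation test over all 35 divisions of the 7 libraries into groups of 3 and 4, regardless of the sign of the difference. The smallest p this design allows is 0.0286. The ratio of Boll to Dazl was 0.962 to 1.09 in wild type and 0.779 to 0.821 in mutants, a difference of log2 ratios of -0.34 (exact p = 0.0286, adjusted over the 6 ratios 0.0571). All mutant libraries lay below all wild-type libraries for this ratio. Papolb, the testis poly(A) polymerase, was compared with Papola, the widely expressed nuclear one, which rose from 158 ± 7.87 to 183 ± 4.98 CPM (log2 fold change 0.21, limma FDR 0.00151, and 0.08 after size factors, where it was not called). Their ratio was 4.43 to 4.66 in wild type and 3.33 to 3.49 in mutants, a difference of -0.41 (exact p = 0.0286, adjusted 0.0571). Every mutant library had a lower ratio than every wild-type library. Cpeb1 was compared with Cpeb4, a family member that rose from 64.1 ± 1.05 to 75.5 ± 1.15 CPM (log2 fold change 0.24, limma FDR 0.000421, and 0.10 after size factors, where it was not called). Their ratio was 0.181 to 0.195 in wild type and 0.242 to 0.260 in mutants, a difference of 0.40 (exact p = 0.0286, adjusted 0.0571).

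The other 3 ratios changed less. Pabpc2 to Pabpc1 was 0.367 to 0.406 in wild type and 0.350 to 0.353 in mutants, a difference of -0.15 (exact p = 0.0571, adjusted 0.0857), and its groups did not overlap. Ybx2 to Ybx3 was 1.40 to 1.50 in wild type and 1.27 to 1.50 in mutants, a difference of -0.08 (exact p = 0.286, adjusted 0.286), with mutant 1 above all wild-type libraries. Ybx1 is the Y-box protein of most cell types and fell from 892 ± 37.2 to 799 ± 19.8 CPM (log2 fold change -0.16, limma FDR 0.0046), a call lost without wild type 1, mutant 2 or mutant 4 (-0.13, -0.14 and -0.16). Ybx2 to Ybx1 was 2.38 to 2.50 in wild type and 2.31 to 2.43 in mutants, a difference of -0.05 (exact p = 0.143, adjusted 0.171). The groups of both Y-box ratios overlapped. After adjustment none of the 6 ratios passed 0.05.

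**Figure D3:**
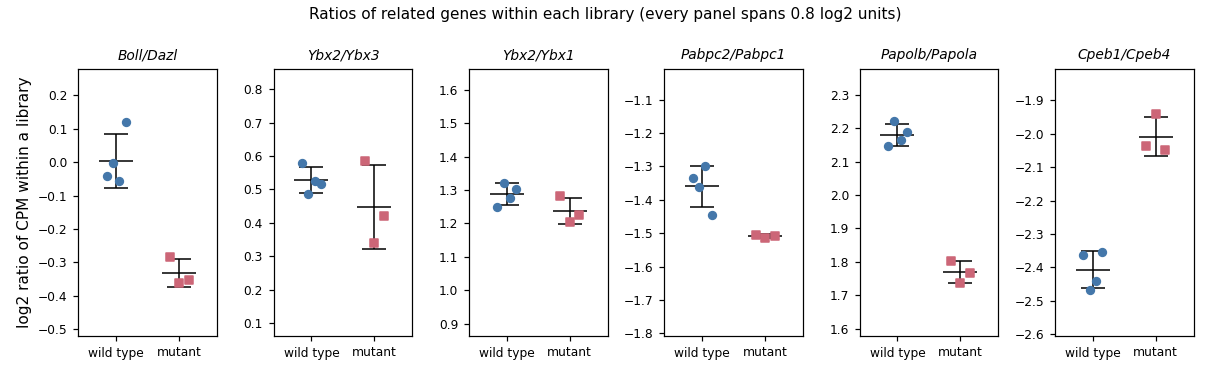
Log2 ratio of 2 related genes within each library, with circles for the 4 wild-type and squares for the 3 mutant libraries and lines for the mean and SD. Every panel spans the same range of 0.8 log2 units, so steps can be compared across panels: mutants lie lower for Boll/Dazl, Papolb/Papola and, by less, Pabpc2/Pabpc1, higher for Cpeb1/Cpeb4, and overlap wild type in both Ybx2 panels.

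Other genes of the same machinery were counted in lists chosen by function. Over all tested genes 36.3% were called higher and 14.2% lower, and 27.0% and 25.1% after size factors. In the poly(A), other regulator, initiation and export lists the share called in either direction on deposited CPM was near the 50.4% of all tested genes. Of 24 genes of the poly(A) tail, 10 rose and 3 fell (6 and 6 after size factors), with a median log2 fold change of 0.08. Pabpc4, an inducible poly(A)-binding protein, rose from 3.63 ± 0.600 to 7.88 ± 0.444 CPM (log2 fold change 1.11, limma FDR 1.2e-05), and Cnot8, a deadenylase subunit, rose from 16.4 to 25.2 CPM. The genes of this list that fell were Tent5c, Pabpc6 and Paip2. Tent5c, a poly(A) polymerase needed for the sperm head to tail junction, fell from 699 ± 9.79 to 573 ± 15.3 CPM, by 0.29 on the log2 scale. Pabpc6, another poly(A)-binding protein gene, fell from 320 to 263 CPM, by 0.28 on the log2 scale (limma FDR 0.000931).

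Of 40 other RNA-binding translation regulators, 15 rose and 6 fell (5 and 11 after size factors), with a median of 0.12. Igf2bp1, a binder of mRNA coding regions and 3′ UTRs, fell from 21.2 ± 1.16 to 8.68 ± 1.34 CPM (log2 fold change -1.29, limma FDR 3.2e-07), and Cpeb3, another family member of Cpeb1, from 97.3 to 79.3 CPM (log2 fold change -0.30). Lsm14a and Patl1, components of cytoplasmic granules that hold repressed mRNAs, rose from 32.6 to 53.9 CPM and from 12.8 to 20.1 CPM. The Cpeb family was thus measured in both directions, with Cpeb1 and Cpeb4 higher and Cpeb3 lower on deposited CPM. Cpeb2, the family member with the highest CPM, did not pass the test there (log2 fold change -0.04, limma FDR 0.502). After size factors Cpeb2 was called lower (-0.17, limma FDR 0.00853), Cpeb3 stayed lower, Cpeb1 stayed higher and Cpeb4 was not called.

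Of 18 genes of cap binding and initiation, 9 rose and 1 fell (5 and 6 after size factors), with a median of 0.21. Eif2ak3, the kinase PERK that phosphorylates an initiation factor under stress, rose from 4.44 to 10.2 CPM (log2 fold change 1.18), and Eif4a1, an initiation helicase, from 17.0 to 35.3 CPM (log2 fold change 1.04). Eif4e2, a cap-binding repressor of translation, fell from 193 to 171 CPM (log2 fold change -0.17, limma FDR 0.00418). That call was lost when wild type 1 (-0.17), wild type 3 (-0.16), mutant 2 (-0.16) or mutant 4 (-0.15) was left out. Eif4g2, an initiation factor used without cap recognition, had the most reads of this list, without regard to length, with 667 CPM in wild type and 699 CPM in mutants, and its change of 0.07 did not pass the test and was -0.07 after size factors.

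Of 16 genes of small RNA processing and mRNA export, 8 rose and 1 fell (5 and 2 after size factors), with a median of 0.24. Prkra, the other double-stranded RNA-binding partner of Dicer and a relative of Tarbp2, rose from 23.8 to 38.8 CPM (log2 fold change 0.70, limma FDR 4.4e-06), and Ago1, an Argonaute protein, from 10.7 to 19.7 CPM (log2 fold change 0.88). Nxt1, a cofactor of mRNA export, fell by 0.16 on the log2 scale (limma FDR 0.00301), and this call was lost without mutant 4 (-0.16). Nxf1, the main mRNA export receptor, rose from 173 to 192 CPM (log2 fold change 0.15, limma FDR 0.00478). Its change was 0.01 after size factors, and its call was also lost without wild type 1 or 2 or mutant 1, 2 or 4 (0.14, 0.15, 0.15, 0.14 and 0.15).

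A list called stored spermatid mRNAs was also counted. Whether each mRNA of this list is held until the spermatid elongates was not measured. Of 12 stored spermatid mRNAs, 12 fell and 0 rose under both scalings, with a median log2 fold change of -0.59 on deposited CPM and -0.73 after size factors. Prm2, a protamine that packs sperm DNA, fell from 6134 ± 395 to 4041 ± 357 CPM (log2 fold change -0.60, limma FDR 3.0e-06). Prm3 fell from 48.9 to 28.7 CPM (-0.76), and Tnp1, a transition protein, had a log2 fold change of -0.68. Of these 12 genes 8 also stand in the list of elongating spermatid markers, so the 2 lists are not separate measurements. RNA levels are given here, and how well these mRNAs were translated was not measured.

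**Figure D4:**
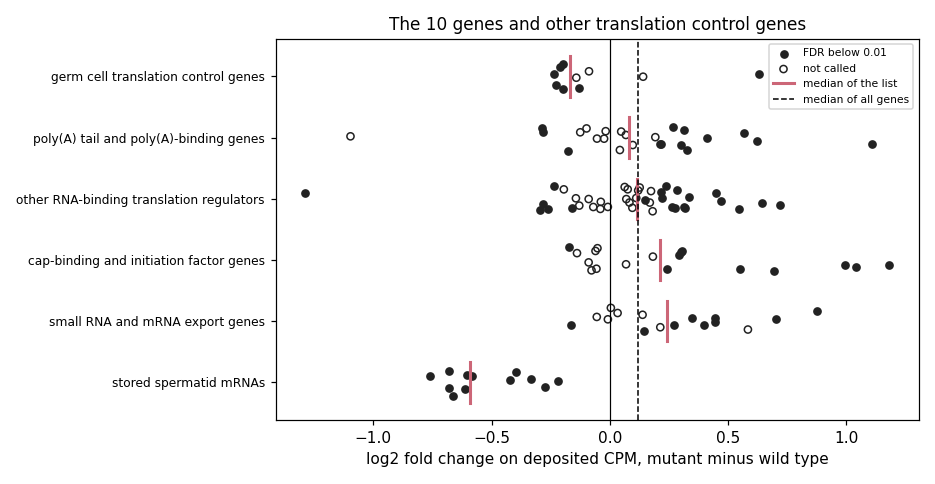
Log2 fold change on deposited CPM of the 10 genes and of 5 lists of related genes, with 1 point a gene, filled where called at an FDR of 0.01, a vertical bar at the median of each list and a dashed line at the median of all tested genes. The stored spermatid mRNAs lie lowest (median -0.59), the 10 genes next (median -0.17), and the other lists lie between 0.08 and 0.24.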

How the data were processed

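The RNA-seq reads of whole testes analysed here came from 4 wild-type and 3 Iqch mutant libraries, 1 testis sample each. A further mutant sample was excluded by the authors as an outlier. According to the processing notes and methods, the authors used Trimmomatic for trimming, Subread for mapping to GRCm39, featureCounts for the reads per gene, and both edgeR and DESeq2 for testing. The strand setting and annotation release are not given in the sources used here. The authors deposited CPM values for 17127 genes, with no between-sample factor. All values were whole multiples of 1 step per library within 0.01, which as 1 read gives 32064384 to 37551057 reads of the deposited genes. Intervals and p-values measure the spread between these libraries.

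Genes with at least 2.2 CPM in 2 samples of a group (17126) were tested with limma 3.58.1 in R 4.3.3 on log2(CPM + 0.1), with Benjamini-Hochberg adjustment over all genes and a threshold of 0.01. Ratios used exact permutation tests written in Python 3.11.15 with NumPy 2.4.6. Coordinates and lengths came from GENCODE M39, where 99.5% of the genes were found. The alternatives were median-of-ratios size factors, pseudocounts of 1 and 0.01, no minimum, a minimum of 5 CPM, a replicate block and each library left out in turn, and the block with size factors was added after seeing the data. The members and lists were chosen with earlier results of these data known. Genes named from the lists are those of the 6 ratios and the gene of each list with the highest CPM. The 2 largest and 2 smallest called changes without overlap between groups are also named. Paip2, Cpeb2, Actg2, Des, Kit, Clu, Insl3, Kdr, Tek and Vwf were named after their values were seen. Other python steps used pandas 2.3.3, NumPy 2.4.6 and matplotlib 3.10.9. The sequence before the start of Ybx3 is not reported here.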

Additional observations from a re-analysis of the deposited data

Results flagged for a closer look

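Among 39 measured items in the 4 wild-type libraries, 2 had 1 library far from the others by Dixon's test, where chance gives about 1 in 20. Boll measured 134.8 CPM in wild type 3 while wild type 1, 2 and 4 lay between 125.1 and 126.0 CPM, a gap of 0.907 of the group's range. Patl1 measured 13.6 CPM in wild type 1 and 12.4 to 12.6 CPM in the others, a gap of 0.890 of the range. Without wild type 3 the log2 fold change of Boll was -0.17 and its call was kept. The wild-type value of Boll was high in a library that also held the highest value of 6 of the 10 genes, and the part of that library in the change was not tested beyond leaving it out.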

How the results depend on the processing

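Under the 14 alternatives, 5 to 9 of the 10 genes were called, always with Cpeb1 higher, and the count over all genes ran from 7237 to 8921. Pseudocounts of 1 and 0.01, no minimum (17127 genes tested) and a minimum of 5 CPM (14559 tested) each gave 7 of the 10. Size factors gave 9 (1 higher, 8 lower). Ybx2, Pabpc2, Ddx25, Papolb and Cpeb1 kept their calls under every alternative and Dazl passed under none. Leaving out 1 library gave 5 to 7 of the 10 genes, 7237 to 8503 over all genes, 11 to 13 poly(A) genes, 16 to 23 other regulators, 7 to 12 initiation genes, 6 to 9 small RNA and export genes and 12 of 12 stored mRNAs. Eif4g2 reversed to -0.066 with size factors and -0.027 with the block and size factors.

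Same-numbered libraries did not deviate together (r of 0.03, 0.01 and -0.10 across genes for numbers 1, 2 and 4). The sources describe no pairing, and so few libraries cannot exclude one. The replicate block gave 5 of the 10 genes (1 higher, 4 lower) and 7722 over all genes, with Boll at -0.17 and Ybx3 at -0.13 not called, and with size factors 9 and 8054. In the block the log2 ratio differences were -0.36 for Boll to Dazl, -0.42 for Papolb to Papola and 0.39 for Cpeb1 to Cpeb4, and leaving out 1 library gave -0.36 to -0.30, -0.43 to -0.40 and 0.36 to 0.42. Those exact tests, with 3 pairs or 6 libraries, cannot reach 0.05, so they say nothing about stability. Count tests were not run, because too few low values were present to recover reads by the required check. Cpeb1, with 394 reads in its lowest library, had the largest standard error of the 10 genes (0.07).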
